A study of Homo sapiens with 9 samples.

Results

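The untreated culture of HuH-7, an established human hepatocellular carcinoma line, was 1 of 9 cultures of that line, each sequenced as 1 library, and it was chosen by its label as the control. The other 8 cultures received 10 mM acetaminophen, exosomes from 1 ml of serum, both of these, 2 mM caffeine, caffeine with acetaminophen, arsenic at 5 or at 15 µM, or arsenic and copper at 5 µM each. Total RNA depleted of ribosomal RNA was measured, so transcripts without a poly(A) tail were counted as well. Exposure times and culture conditions were not stated in the labels, and no library of liver tissue or primary hepatocytes was part of the design, so levels are described and no gain or loss against liver can be stated. The file assigned 951816 reads to genes and listed 63677 gene identifiers, of which 12268 had at least 3 counts. The other libraries held between 658725 and 8227906 counts on genes and served only as ranges and as a check on depth.

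Hepatocytes make most of the proteins of blood plasma, clear ammonia through the urea cycle, release glucose, oxidise and conjugate drugs, and make bile acids. These programmes are driven in part by a group of transcription factors that includes HNF4A and the FOXA proteins. Liver tumours often retain some of these programmes while transcribing genes of the fetal liver, of which alpha-fetoprotein is the best known. With 1 library there were no replicates and no test. Intervals are exact 95% intervals (Poisson for a level, Clopper-Pearson for a share, conditional binomial for a ratio), and they cover counting error only, since reads without molecular identifiers are not independent molecules. A level is given as protein-coding TPM, the count divided by the summed length of a gene's exons and scaled so that the 19363 nuclear protein-coding genes add up to 1000000. A gene was called detected from 3 counts. A count of 0 was given a floor of 3 counts, to which the wording "allows up to" and "at least" refers, and the exact 2-sided interval of a count of 0 reaches further, to 3.69 counts. The length matters for genes whose annotated transcripts differ much in size, so levels with the median transcript length are given where they change an order or a call.

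Among named genes, small noncoding RNAs held the largest single counts of the library, and their sequences come first because several belong to families of near-identical copies. The gene with the most counts among the classified noncoding RNAs was RNU2-59P, a copy of the U2 small nuclear RNA that pairs with the intron branch site during splicing, with 22537 counts (22244 to 22833). It lies on chromosome 10 and is 191 bases long in GENCODE 29. It accounted for 94.9% of the 23743 counts on the 69 identifiers named as U2 or its copies. RNU2-1, the U2 gene on chromosome 17, had no identifier of its own in the file. Both sequences are shown with capitals at the 9 positions where they differ, and they were 95.3% identical.
RNU2-59P: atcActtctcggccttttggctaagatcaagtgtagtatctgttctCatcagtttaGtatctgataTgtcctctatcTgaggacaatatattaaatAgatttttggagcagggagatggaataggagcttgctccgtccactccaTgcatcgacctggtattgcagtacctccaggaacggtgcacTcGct
RNU2-1: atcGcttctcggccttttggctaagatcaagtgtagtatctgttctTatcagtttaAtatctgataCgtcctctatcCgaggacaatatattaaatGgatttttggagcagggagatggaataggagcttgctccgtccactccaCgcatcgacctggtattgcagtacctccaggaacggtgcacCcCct

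Counted from the 5′ end, with the RNU2-1 base first, the differences were G4A, T47C, A57G, C67T, C78T, G97A, C146T, C187T and C189G. A further U2 copy, RNU2-2P, had 0 counts in the untreated library and 0 in each of the other 8, and it differed from RNU2-59P at 14 positions. Reads from such copies can be assigned to the wrong member or set aside as aligned to several places, so the count of RNU2-59P is uncertain as a measure of that locus. How the reads divided among U2 copies was not tested.

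The U5 small nuclear RNA, which aligns exon ends in the spliceosome, came from several gene copies that did keep separate counts. RNU5E-1 had 3398 counts, RNU5B-1 had 3091 counts and RNU5A-1 had 1733 counts. These copies resemble each other, so their split carries the same uncertainty.

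Small nucleolar RNAs guide the chemical modification and cutting of ribosomal RNA in the nucleolus. The most counted was SNORD3A on chromosome 17, a U3 gene needed for the first cuts of the ribosomal precursor, with 12706 counts (12486 to 12929). U3 has further gene copies, so this count carries the uncertainty described for U2. SNORA73B and SNORA80E, both on chromosome 1, had 4964 and 4625 counts and belong to the H/ACA class, which guides conversion of uridine to pseudouridine. SNORD46 on chromosome 1 had 3079 counts and belongs to the C/D class, which guides methylation of ribose, and SNORD13, which takes part in acetylation of small-subunit ribosomal RNA, had 2801 counts. The defining boxes of the 2 classes are in capitals in 3 of these sequences: the C box letters TGATGA and the D box letters CTGA of SNORD3A, and the letters ACA located 3 bases from the 3′ end of both H/ACA members.
SNORD3A: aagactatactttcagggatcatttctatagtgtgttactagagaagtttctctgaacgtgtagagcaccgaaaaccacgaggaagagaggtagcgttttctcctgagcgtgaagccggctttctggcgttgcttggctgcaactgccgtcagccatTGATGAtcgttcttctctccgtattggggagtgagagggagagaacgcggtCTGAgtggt
SNORA73B: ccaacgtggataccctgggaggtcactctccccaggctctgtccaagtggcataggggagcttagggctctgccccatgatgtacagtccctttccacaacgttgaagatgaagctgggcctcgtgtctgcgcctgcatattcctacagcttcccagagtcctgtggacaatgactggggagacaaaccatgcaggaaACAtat
SNORA80E: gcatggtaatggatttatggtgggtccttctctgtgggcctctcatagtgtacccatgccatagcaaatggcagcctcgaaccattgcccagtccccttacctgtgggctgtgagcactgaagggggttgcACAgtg

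Nuclear protein-coding genes took 77.0% of the counts on genes (interval 76.9 to 77.1%), against 48.3 to 85.8% in the other 8 libraries. Small nucleolar and Cajal body RNAs followed with 4.98%, against 3.49 to 36.1% elsewhere. Long noncoding and antisense RNAs took 4.14% (2.51 to 8.16% elsewhere) and small nuclear RNAs 3.64% (0.620 to 6.31% elsewhere). Miscellaneous small RNAs held 2.79% and mitochondrial ribosomal RNAs 1.53%. The untreated library lay inside the range of the other libraries in each of these classes. Mitochondrial protein-coding genes took 0.609%, pseudogenes 0.410%, mitochondrial transfer RNAs 0.144% and microRNA genes 0.0454%. Identifiers without a GENCODE 29 record held 4.71%, and 2.66% of all counts lay on ENSG00000258486, to which the tables used here give no name.

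**Figure D1:**
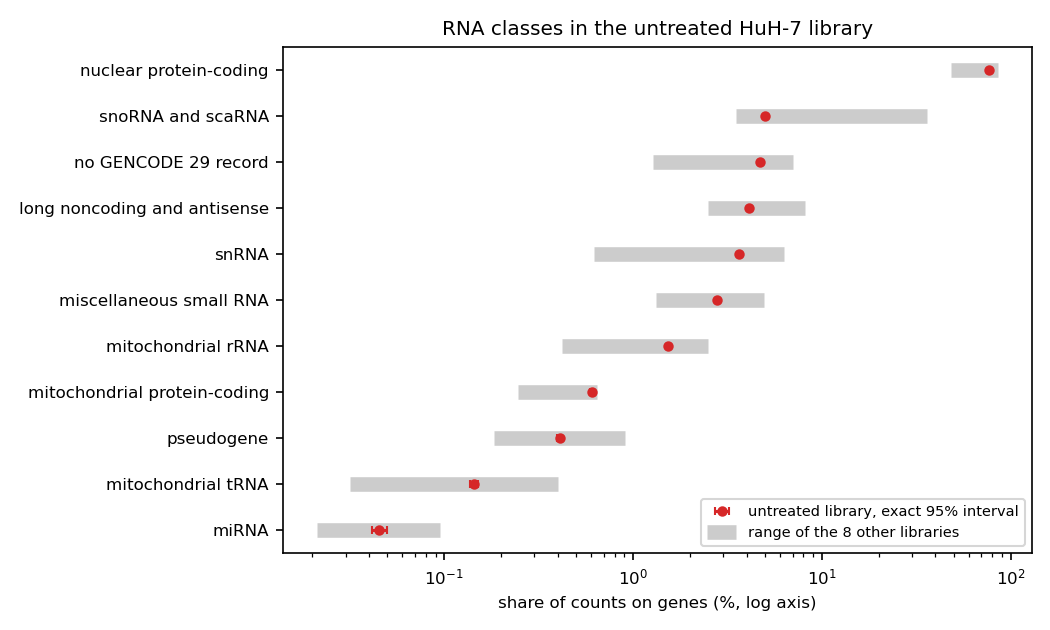
Share of counts on genes by RNA class on a log axis, with the untreated library as a red point with its exact 95% interval and the range of the other 8 libraries as a grey bar. Nuclear protein-coding genes took 77.0% in the untreated library, and its points lie within the grey bars.

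Within the noncoding classes a few genes held most counts. C/D snoRNAs summed to 29384 counts over 246 identifiers, of which 60 were detected, and SNORD3A alone gave 43.2% of them. H/ACA snoRNAs summed to 16369 counts over 130 identifiers, of which 60 were detected. Cajal body RNAs, which guide modification of small nuclear RNAs, summed to 1205 counts, of which SCARNA5 gave 594. The U1, U4 and U6 small nuclear RNA families summed to 315, 415 and 143 counts, each under the 8975 counts of the U5 family. These families have many near-identical copies, so their counts are uncertain in the same way as those of U2.

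The 7SK RNA (ENSG00000202198), which holds the elongation factor P-TEFb inactive, led the miscellaneous small RNAs with 15366 counts (15124 to 15611). The vault-related RNA VTRNA2-1 had 3401 counts, and the Y RNAs RNY3, RNY4 and RNY1, which bind the Ro protein, had 2799, 1440 and 1215 counts. The vault RNAs proper were lower in count, with 32 for VTRNA1-1, 51 for VTRNA1-2 and 106 for VTRNA1-3. RMRP, the RNA of the RNase MRP that processes ribosomal and mitochondrial RNA, led the long noncoding class with 11722 counts (11511 to 11936). Most of its exon bases are also covered by another annotated gene, so its count depends on how overlapping reads were assigned. AL355075.4, a gene annotated as antisense that is likewise mostly overlapped, had 4808 counts. Other annotated genes also cover 99.1% of the bases of 7SK, 78.9% of VTRNA2-1, and 100% of SNORD13 and of RNU5E-1, so the same limit holds for their counts.

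Host genes of small nucleolar RNAs were the other large long noncoding group, with 11638 counts over 25 identifiers, 17 of them detected. SNHG1 had 5060 counts, SNHG3 had 1945 and GAS5, a transcript known to accumulate when growth stops, had 1852. Reads of the snoRNAs that lie in their introns are counted under other identifiers where the annotation lists them. Among the 21 liver and cancer long noncoding RNAs with an identifier, 14 were detected. In the whole long noncoding and antisense class 509 of 13104 identifiers were detected. MALAT1, a nuclear speckle RNA, had 1161 counts, below the range of the other 8 libraries in CPM (1220 CPM here, 1412 to 4062 CPM elsewhere). NEAT1, the scaffold of paraspeckles, had 131 counts, DANCR had 327, SNHG8 had 314 and SNHG5 had 107. KCNQ1OT1, an imprinted antisense transcript, had 85 counts, TUG1 had 56, LINC00261 had 38, UCA1 had 36, CYTOR had 17 and PVT1 had 4. The host transcript of the liver microRNA miR-122, MIR122HG, had 47 counts. H19, HOTAIR, HOTTIP and FAM99A had 0 counts, and MEG3, LINC01018 and FAM99B had 1 each.

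Mitochondrial messenger RNAs were unequal per length. MT-CO3 and MT-CO2, subunits of cytochrome c oxidase, had 1744 and 1743 counts per kilobase, and the third subunit gene, MT-CO1, had 1316 counts per kilobase. MT-ND2, a complex I subunit, had 44.1 counts per kilobase, and MT-ND6 had 1 count in all. The ribosomal RNAs MT-RNR2 and MT-RNR1 had 6074 and 5365 counts per kilobase. The cytochrome c oxidase subunit genes were thus the most counted mitochondrial messengers per length. MicroRNA genes gave 432 counts in all, of which 184 lay on MIR4449 and 66 on MIR3687-2.

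Of the 19363 nuclear protein-coding genes, 10854 were detected, which is 56.1% of them, and 1710 reached 100 TPM, which is 8.83%. A further 2447 genes had 1 or 2 counts and 6062 had none. The median over all of them was 5.01 TPM and over the detected ones 23.6 TPM. The gene with the most counts, ALB, took 0.960% of the protein-coding counts, the 10 highest took 5.94%, the 100 highest 21.1% and the 1000 highest 55.6%. By count, no single gene thus took 1% of the protein-coding total. Among detected genes, exon length and TPM had a Spearman correlation of -0.406 across genes, which are not independent replicates. For exon length and count the correlation was 0.0155 among the same genes. TPM divides the count by length, and the count needed for detection is a higher TPM in a short gene. The negative value is therefore partly built in, and it cannot show whether short genes had more transcripts.

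Among protein-coding genes, those of 2 plasma proteins had the most counts. Reads aligned to several places were left out, so genes with near-identical copies elsewhere in the genome may rank too low here. Albumin (ALB), the main carrier protein of plasma, was first with 7037 counts (6874 to 7203), and AFP, its fetal relative, was second with 6105 counts (5953 to 6260). GAPDH of glycolysis had 5314 counts, the ferritin light chain FTL had 4720 and the elongation factor EEF1A1 had 4505. The keratins KRT8 and KRT18, which form the filaments of simple epithelia and hepatocytes, had 3573 and 3140 counts. Further plasma protein genes among the 30 highest by count were FN1 (fibronectin, 2698 counts), APOB (2317), APOA2 (2115), SERPINA1 (alpha-1 antitrypsin, 2100), AMBP (1782), TF (transferrin, 1745) and A2M (alpha-2 macroglobulin, 1539). Others belonged to protein synthesis and folding, such as RPSA (3403 counts), RPLP0 (2293), EEF2 (1938), HSPA8 (2793), HSP90AB1 (1728) and CALR (2107). The glycolytic enzymes ENO1 and PKM had 2511 and 2178 counts, and the cytoskeletal genes ACTB, TUBB and TMSB10 had 2964, 1695 and 1527.

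Per length the order changed, and 16 genes were in both sets of 30. FTL was first at 26961 TPM (26197 to 27741), followed by TMSB10, an actin-binding peptide, at 15440 TPM and APOA2, a protein of high-density lipoprotein, at 11224 TPM. ALB had rank 4 at 10451 TPM (10208 to 10698) and AFP rank 5 at 9395 TPM (9161 to 9633). This order depends on the length. With the median transcript length in place of the summed exons, AFP stood at 11052 TPM, ALB at 8364 TPM, FTL at 6744 TPM, APOA2 at 5962 TPM and TMSB10 at 3862 TPM. Clustered histones, most of whose messengers end without a poly(A) tail, held 7 of the 30 places. In CPM each of these lay above the range of the other 8 libraries, as HIST1H1B did with 1076 CPM here and 40.9 to 716 CPM elsewhere. Other genes of these sets, such as RPSA and KRT18, also lay above their ranges. HIST1H1C reached 8054 TPM, HIST1H1B 7541 TPM and HIST1H4C 5015 TPM. The clustered histone family summed to 9128 counts, and 28 of its 39 identifiers were detected. APOB and FN1, which have long messengers, were at 784 and 781 TPM. Cytoplasmic ribosomal protein genes held 5.77% of the counts on genes, with 80 of 83 detected.

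**Figure D2:**
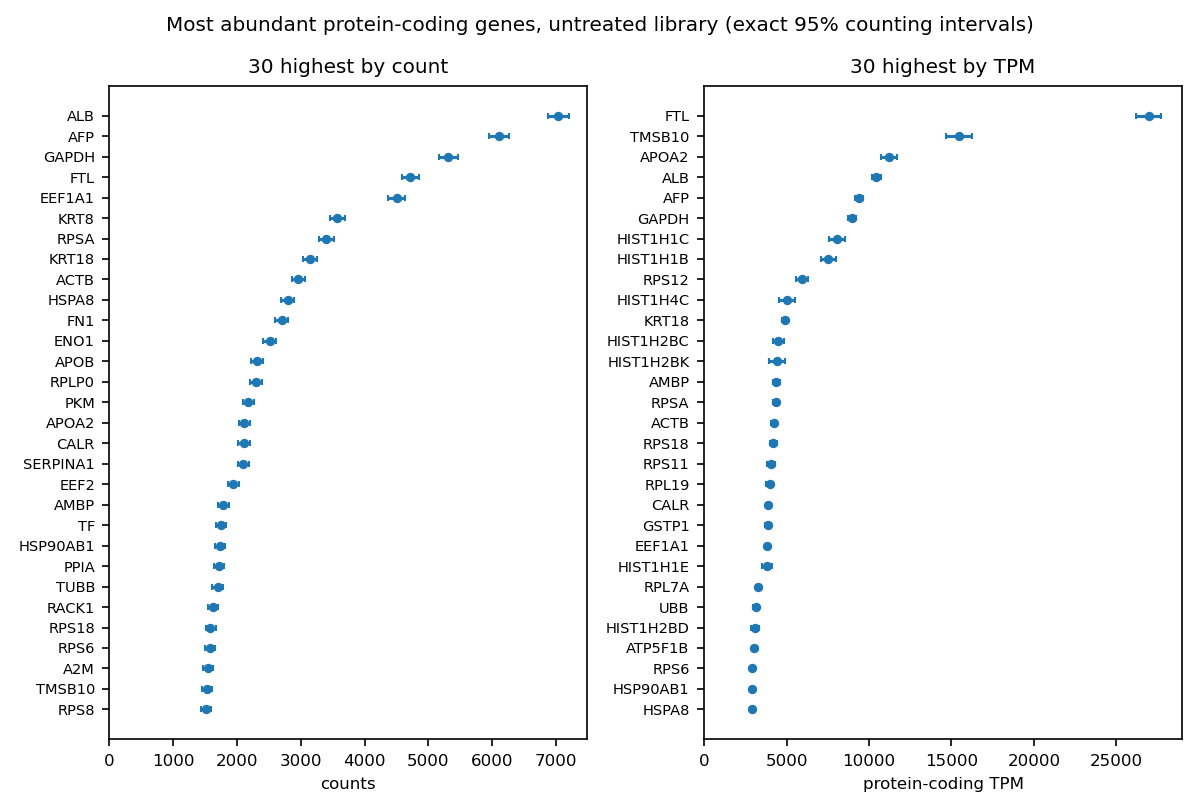
The 30 protein-coding genes with the most counts (left) and the highest protein-coding TPM (right) in the untreated library, with exact 95% counting intervals as bars. ALB and AFP lead by count with 7037 and 6105, and FTL leads at 26961 TPM per summed exon length.

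ALB, AFP and AFM, which belong to the albumin family, sit side by side on chromosome 4 in that order, and AFM stood far below ALB and AFP. AFM, the gene of the vitamin E-binding plasma protein afamin, had 0 counts, which allows up to 6.70 TPM, beside the 10451 TPM of ALB and the 9395 TPM of AFP.

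Plasma carrier and acute phase genes spanned the whole range of the library. Of 40 members 24 were detected (60.0%, against 56.1% of all protein-coding genes), and 15 reached 100 TPM (37.5%, against 8.83%). The median member stood at 30.7 TPM, against 5.01 TPM over all protein-coding genes. After ALB, the highest were AMBP, the precursor of alpha-1 microglobulin and bikunin, at 4379 TPM (4178 to 4587), RBP4, the carrier of retinol, at 2405 TPM, and AHSG, the calcium-binding fetuin A, at 2281 TPM. SERPINA1 stood at 2148 TPM, A2M at 1209 TPM and TF at 334 TPM. The exons of TF add up to 26199 bases, and with its median transcript length it stood at 3534 TPM. By contrast FETUB, A1BG and SERPINA3, the gene of alpha-1 antichymotrypsin, had 0 counts. For SERPINA3 this allows up to 3.005 TPM. Further acute phase genes, named after their values were seen, divided in the same manner, with 225 and 261 counts for the orosomucoid genes ORM1 and ORM2, 7 counts for haptoglobin (HP), and 0 for CRP and SAA1.

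Apolipoprotein genes had the highest share at 100 TPM among the secreted lists. Of 19 members 13 were detected (68.4%, against 56.1% of all protein-coding genes) and 10 reached 100 TPM (52.6%, against 8.83%). The median was 103 TPM. APOA2 led at 11224 TPM (10751 to 11713), followed by APOA1, the main protein of high-density lipoprotein, at 2050 TPM, APOE at 1234 TPM and APOC1 at 819 TPM. APOC4, APOF, LPA and CETP, the cholesteryl ester transfer protein, had 0 counts. APOC4 shares most of its exon bases with another annotated gene, so reads there may have been set aside.

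Coagulation genes were detected in 17 of 22 cases (77.3%, against 56.1% of all protein-coding genes). At 100 TPM or more there were 7 (31.8%, against 8.83%), and the median was 39.5 TPM. The fibrinogen chain FGB stood at 1472 TPM (1372 to 1578) and FGA at 669 TPM. Prothrombin (F2) stood at 602 TPM and the plasmin inhibitor SERPINF2 at 459 TPM. The 4 lowest members by TPM were F11, F12 and HRG with 1 count each and F9 with 2. The contact system gene KNG1, named after its value was seen, had 43 counts (46.1 TPM). None of the 22 members was at 0.

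Complement genes were lower than the other secreted lists. Of 25 members 13 were detected, a smaller share than the 56.1% of all protein-coding genes. At 100 TPM or more there were 3, a larger share than the 8.83% of all protein-coding genes. The median of 3.57 TPM lay below the 5.01 TPM over all protein-coding genes. C3, the central component, stood at 773 TPM (731 to 816), C5 at 137 TPM and the lectin pathway protease MASP1 at 91.1 TPM. C4A, C8G and C9 had 0 counts. C4A and C4B are near-identical copies, so reads from them may be among those aligned to several places, and C4B had 1 count. Over the 4 secreted lists, 67 of 106 members were detected (63.2%), 35 reached 100 TPM (33.0%) and the median was 19.2 TPM. Their counts summed to 31752 CPM, against 13987 to 35049 CPM in the other libraries.

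**Figure D3:**
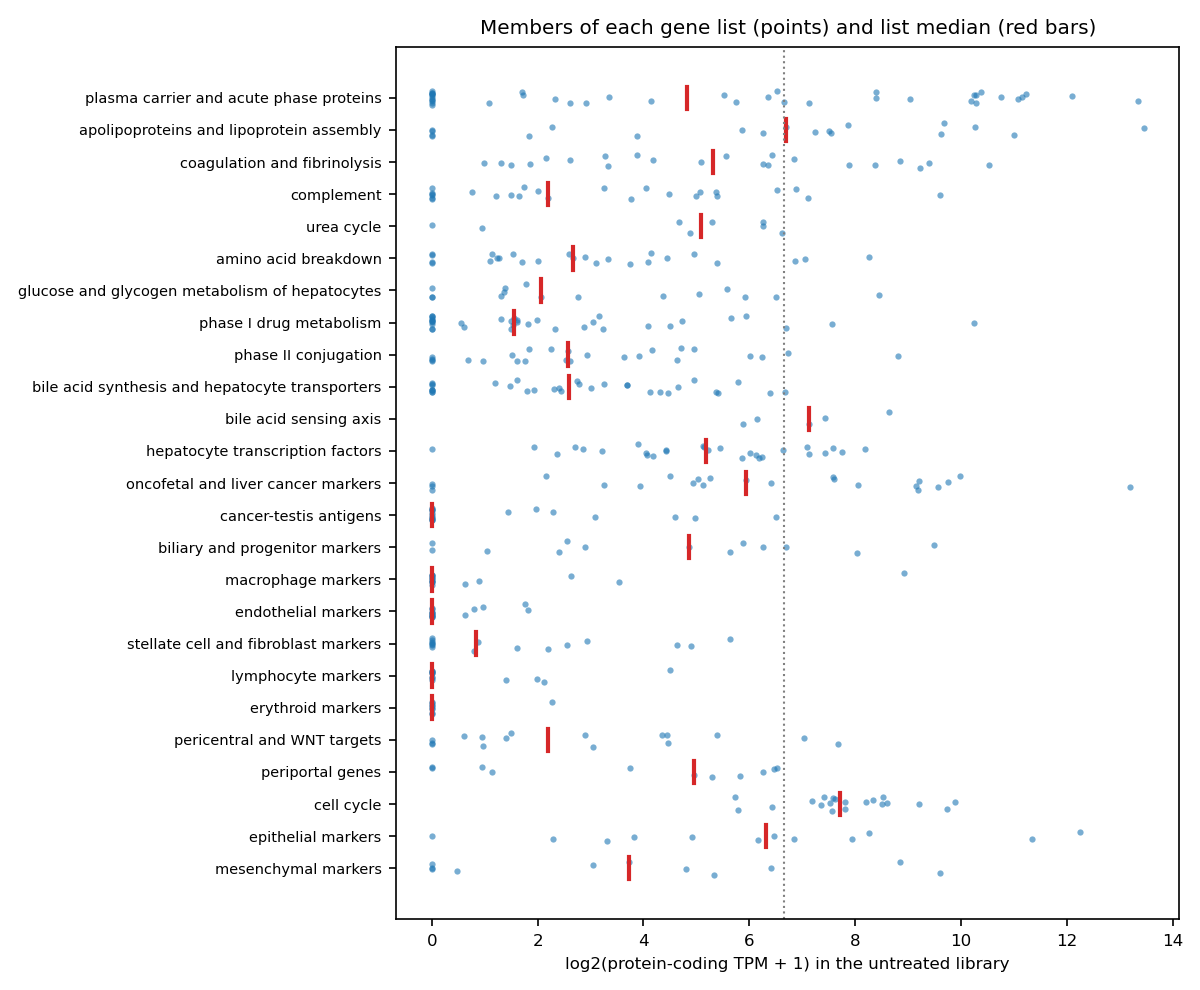
Level of each member (blue points, log2 of protein-coding TPM plus 1, jittered vertically) and the median over members (red bars) for each gene list in the untreated library, with the dotted line at 100 TPM. Per summed exon length, cell cycle, bile acid sensing and apolipoprotein lists have medians above 100 TPM, whereas with the median transcript length the last 2 stand at 34.7 and 64.0 TPM, and the macrophage, endothelial, lymphocyte, erythroid and cancer-testis lists have medians of 0.

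Genes of hepatocyte metabolism lay near the background of all protein-coding genes. Over the lists for the urea cycle, amino acids, glucose, drug metabolism, bile acids and transport, 77 of 140 members with an identifier were detected (55.0%), close to the 56.1% of all protein-coding genes. At least 10 counts were found for 46 of them. At 100 TPM or more there were 10, which is 7.14% against 8.83% of all protein-coding genes, and the median of 4.36 TPM was near the 5.01 TPM over all. Their counts summed to 3863 CPM, against 2888 to 6964 CPM elsewhere, and the secreted lists summed to 31752 CPM.

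The urea cycle was present in part. CPS1, the mitochondrial entry enzyme, had 2 counts (0.931 TPM, 0.113 to 3.36) and OTC, the next enzyme, had 0, which allows up to 8.71 TPM. The cytosolic enzymes were detected, with ASL at 97.3 TPM (74.6 to 125), ASS1 at 75.6 TPM (55.4 to 101) and ARG1 at 38.3 TPM (21.4 to 63.1). NAGS, which makes the activator of CPS1, stood at 28.4 TPM, and the mitochondrial carriers SLC25A13 and SLC25A15 at 75.7 and 24.6 TPM. CPS1 and OTC were the only members of this list under 3 counts. In the other libraries CPS1 ranged from 1.52 to 43.9 CPM, against 2.10 CPM here, and 2 of them had at least 3 counts of OTC.

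Of 25 genes of amino acid breakdown, 15 were detected and 3 reached 100 TPM. HGD, which opens the ring of homogentisate, stood at 304 TPM (262 to 352), CBS of transsulfuration at 132 TPM and FAH, the last enzyme of tyrosine breakdown, at 41.1 TPM. SDS, PRODH2, GNMT and KMO had 0 counts. The tyrosine enzymes TAT and HPD, named after their values were seen, had 7 counts and 1 count.

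Genes of hepatocyte glucose metabolism were detected in 6 of 15 cases (40.0%, against 56.1% of all protein-coding genes). Pyruvate carboxylase (PC), which makes oxaloacetate, was highest at 349 TPM (317 to 385). The glycogen phosphorylase PYGL stood at 89.9 TPM, the glucose-6-phosphate transporter SLC37A4 at 59.2 TPM, the mitochondrial carboxykinase PCK2 at 46.7 TPM, TKFC at 32.1 TPM and ketohexokinase (KHK) at 19.7 TPM. PCK1 and G6PC, of gluconeogenesis, had 0 counts. FBP1 and GCKR had 2 counts each, and SLC2A2, PKLR and GYS2 had 1 each. The floor of 3 counts corresponds to 4.56 TPM for G6PC and 2.21 TPM for PCK1.

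Of 35 members of phase I drug metabolism 16 were detected (45.7%, against 56.1% of all protein-coding genes). At 100 TPM or more there were 3 (8.57%, against 8.83%), and the median was 1.95 TPM. ALDH1A1, which oxidises retinal and other aldehydes, stood far above the rest at 1208 TPM (1119 to 1301). POR, the electron donor of the cytochromes P450, followed at 189 TPM, then CYP1A1 at 102 TPM (79.7 to 129) and AADAC at 60.1 TPM. CYP2A6, CYP2C18, CYP2C19 and CYP3A4, the main drug-metabolising P450 of adult liver, had 0 counts. CYP2E1, which oxidises ethanol and acetaminophen, had 1 count. Reads of near-identical P450 copies may be among those aligned to several places.

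Conjugation genes lay near the background. Of 25 members with an identifier 14 were detected (56.0%, against 56.1% of all protein-coding genes) and 2 reached 100 TPM (8.0%, against 8.83%). GSTO1 stood at 448 TPM (379 to 525), the epoxide hydrolase EPHX1 at 106 TPM, MGST1 at 74.8 TPM and UGT2B4 at 64.0 TPM. UGT1A1, the bilirubin-conjugating enzyme, UGT1A9, UGT2B15 and GLYAT had 0 counts. The UGT1A genes share exons, so a read in the shared part cannot be assigned to 1 of them.

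In the bile acid and transporter list 20 of 32 members were detected (62.5%, against 56.1% of all protein-coding genes). At 100 TPM or more there was 1 (3.125%, against 8.83%). This was SLC51B, a subunit of the basolateral bile acid exporter, at 101 TPM (61.0 to 158). SLC22A9 followed at 82.8 TPM, the canalicular pump ABCC2 at 54.4 TPM and ABCC6 at 41.7 TPM. CYP7A1, the rate-limiting enzyme of bile acid synthesis, CYP7B1, CYP8B1 and ABCG5 had 0 counts. The bile acid uptake transporter SLC10A1 had 0 counts here and 0 in each of the other 8 libraries.

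The genes that sense bile acids were all detected, against 56.1% of all protein-coding genes. FGFR4, the receptor of FGF19, stood at 400 TPM (361 to 442), the bile acid receptor NR1H4 at 171 TPM (143 to 204) and its target NR0B2, a repressor of CYP7A1, at 139 TPM (94.96 to 196). FGF19, the hormone that in the body comes from the ileum, stood at 69.7 TPM (48.3 to 97.4), and its co-receptor KLB at 57.7 TPM (45.0 to 72.9). The median over these 5 genes was 139 TPM per summed exon length and 34.7 TPM with the median transcript length. In the bile acid synthesis and transport list it was 5.09 and 3.93 TPM by the same measures.

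Hepatocyte transcription factors were detected with 1 exception. Of 28 members 27 had at least 3 counts (96.4%, against 56.1% of all protein-coding genes), and 6 reached 100 TPM (21.4%, against 8.83%). HNF4A was highest at 290 TPM (263 to 319), followed by FOXA3 at 215 TPM (174 to 263), HHEX at 191 TPM (154 to 233) and NR1H4. FOXA1 stood at 135 TPM, PROX1 at 98.3 TPM, GATA4 at 74.5 TPM, FOXA2 at 71.3 TPM, CEBPB at 69.2 TPM and the sterol regulator SREBF1 at 57.5 TPM. The intervals of FOXA3, HHEX and NR1H4 overlap, so their order is not resolved by counting error.

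A middle group held NR2F2 at 42.7 TPM, RXRA at 36.2 TPM, NR1H3 at 34.3 TPM, NR5A2 at 33.8 TPM, CREB3L3 at 20.6 TPM, ATF5 at 20.4 TPM and CEBPA at 17.2 TPM. KLF15 stood at 15.8 TPM, ONECUT1 at 15.6 TPM, GATA6 at 14.0 TPM and ONECUT2 at 8.34 TPM. The lowest detected members were MLXIPL (6.25 TPM), ZBTB20 (5.51 TPM), PPARA (4.17 TPM) and NR1I2, the xenobiotic receptor PXR, with 3 counts (2.80 TPM). NR1I3, the xenobiotic receptor CAR, had 0 counts, which allows up to 4.55 TPM. The xenobiotic receptors PXR and CAR, which switch on drug-metabolising P450 genes, thus had the lowest TPM values of the list. The interval of NR1I2 (0.577 to 8.17 TPM) held the values of PPARA, ZBTB20 and MLXIPL, so its place below them is not resolved by counting error. The list holds genes known to be active in many tissues too, such as RXRA and CEBPB.

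Oncofetal and liver cancer markers were a prominent group. Of 24 genes with an identifier 20 were detected (83.3%), and 10 of the 23 protein-coding ones reached 100 TPM (43.5%). Among all protein-coding genes these shares were 56.1% and 8.83%. After AFP, the highest were GPC3, a cell surface proteoglycan of fetal liver, at 1017 TPM (934 to 1106), S100P at 866 TPM (755 to 988), the trypsin inhibitor SPINK1 at 762 TPM (666 to 869), and PEG10, a gene derived from a retrotransposon, at 594 TPM (553 to 637). The growth factor MDK stood at 582 TPM, the chromatin protein HMGA1 at 569 TPM, the fetal messenger-binding protein IGF2BP1 at 265 TPM, IGF2 at 193 TPM and GOLM1 at 191 TPM. LIN28B, which blocks maturation of let-7, stood at 83.6 TPM, and its relative LIN28A had 0 counts.

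The remaining members stood lower, with HMGA2 at 60.6 TPM, ROBO1 at 37.4 TPM, IGF2BP2 at 33.9 TPM, PROM1 at 31.7 TPM, IGF2BP3 at 29.5 TPM and TERT at 21.8 TPM. AKR1B10 stood at 14.4 TPM, DLK1 at 8.50 TPM and SALL4 at 3.48 TPM. REG3A and CD24 had 0 counts. CD24 was listed at 0 in all 9 libraries, and reads from a gene with near-identical copies may have been set aside. H19, which is expressed from the same imprinted region as IGF2, had 0 counts beside 268 counts of IGF2, and 2 of the other 8 libraries had at least 3 counts of it. IGF2 shares most of its exon bases with another annotated gene.

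**Figure D4:**
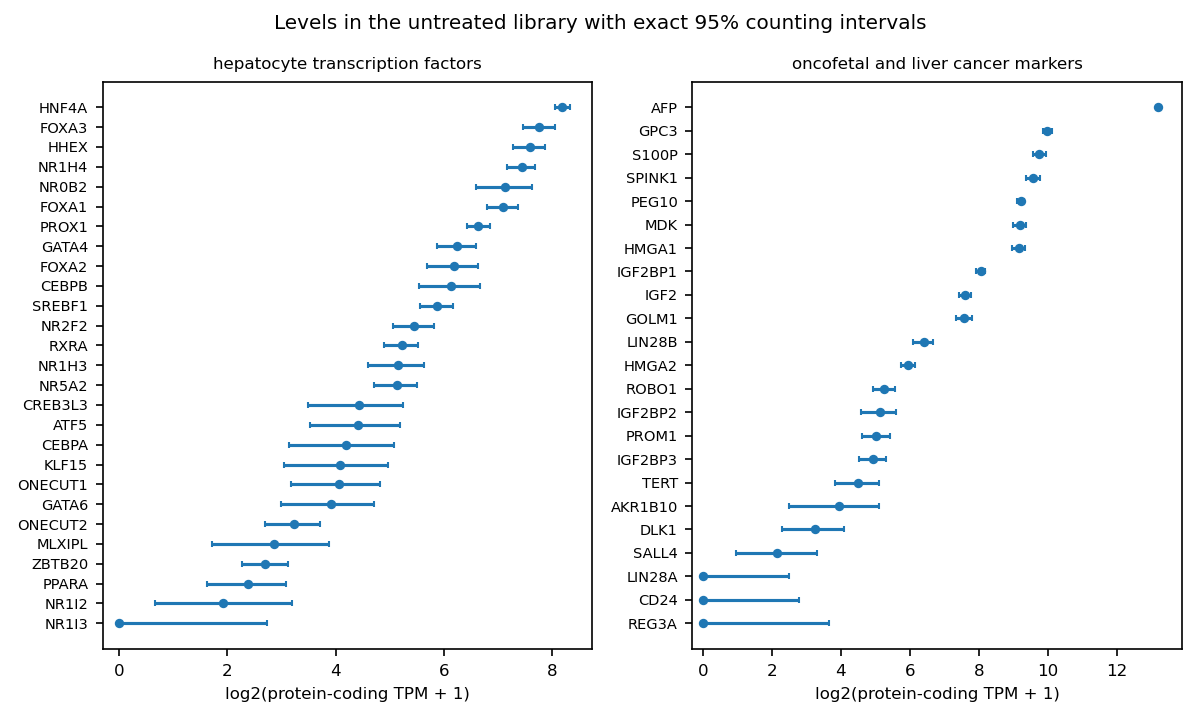
Levels (log2 of protein-coding TPM plus 1) of 27 hepatocyte transcription factors (left) and of oncofetal and liver cancer markers with a TPM (right) in the untreated library, with exact 95% counting intervals. HNF4A at 290 TPM and AFP at 9395 TPM lead, and NR1I3, LIN28A, CD24 and REG3A are at 0.

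Many enzymes exist in a form typical of adult liver and a form used in fetal or other tissues, and 24 such pairs were compared per exon length. The other form was higher in 14 pairs and the liver form in 4, judged by whether the interval of the ratio excluded 1. For 1 pair the interval held 1, in 4 pairs both genes were at or under the floor, and 1 pair lacked an identifier. Among glycolytic genes PKLR had 1 count against 2178 for PKM, a ratio of 0.00124 (3.14e-05 to 0.00693). The liver glucose transporter SLC2A2 had 1 count against 55 for SLC2A1, a ratio of 0.0251 (0.000625 to 0.146). An exception in this pathway was phosphofructokinase, where PFKL had 154 counts against 0 for PFKP and was at least 27.8-fold higher with PFKP set to 3 counts.

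Pairs from other pathways leaned the same way. MAT1A, the liver methionine adenosyltransferase, had 1 count against 218 for MAT2A, a ratio of 0.00558 (0.000141 to 0.0314). GSTA1 had 1 count against 1476 for GSTP1, a ratio of 0.00127 (3.21e-05 to 0.00709). IGF1 had 0 counts against 268 for IGF2, which was at least 104-fold higher with IGF1 set to 3 counts. PCK1 had 0 counts against 39 for PCK2, which was at least 21.2-fold higher with PCK1 set to 3 counts. The lower limits of the exact intervals were 84.0 and 16.4. The glycogen synthase ratio of GYS2 to GYS1 was 0.0183 (0.000458 to 0.105). Other annotated genes cover 87.5% of the exon bases of GYS2 and 82.4% of those of IGF1, so reads of both may have been set aside. Smaller differences were seen for ACSL1 over ACSL4 at 0.100 (0.0589 to 0.160), CEBPA over CEBPB at 0.248 (0.103 to 0.543), ARG1 over ARG2 at 0.268 (0.142 to 0.472) and PYGL over PYGB at 0.585 (0.442 to 0.772). With the longest transcript as length, the PYGL ratio was 0.851 and its interval held 1.

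The liver form was higher for the keratins, with KRT18 over KRT19 at 6.76 (6.04 to 7.59), and for the export pumps, with ABCC2 over ABCC1 at 4.56 (2.72 to 8.07). In the albumin family the ratio of ALB to AFP was 1.11 (1.07 to 1.15) per exon length and 1.15 by count, and it turned to 0.757 when the median transcript length was used. Which of these 2 genes had more transcripts was therefore not settled by the counts. In the other libraries ALB was higher in 6 and AFP in 2 by the same measure. For the fatty acid binders FABP1 and FABP5, with 211 and 147 counts, the ratio was 1.21 (0.973 to 1.5002). It turned to 0.679 with the longest transcript, where the interval lay below 1, and to 1.44 by count, where it lay above 1, so the order of this pair depends on the length. CYP3A4 with CYP3A7, ADH1B with ADH1A, and SLC10A1 with SLC10A2 were among those that allowed no ratio.

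**Figure D5:**
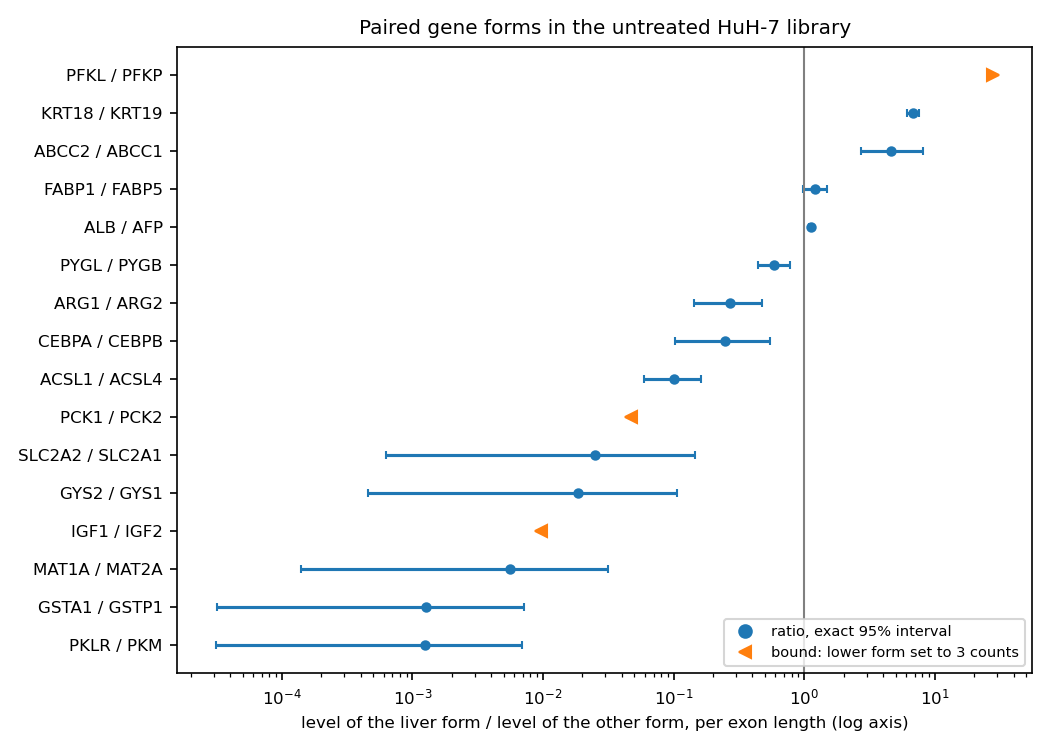
Level of the liver form divided by that of the other form, per exon length on a log axis, with exact 95% intervals (blue) or a bound with the absent form set to 3 counts (orange triangles). PFKL, KRT18, ABCC2 and ALB exceed their partners, FABP1 has an interval that holds 1, and the other 11 pairs drawn lie below 1.

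Markers of other cell types were used to check the label. In bulk RNA, a lower share of cells of a type and less of a transcript per cell cannot be told apart. Of 15 macrophage markers 2 were detected (13.3%, against 56.1% of all protein-coding genes). These were LYZ with 170 counts (483 TPM) and CD14 with 4, while CD68, MARCO, VSIG4 and CSF1R had 0. The list summed to 186 CPM, against 28.5 to 304 CPM elsewhere, and nearly all of it was LYZ. Of 15 endothelial markers 1 was detected (6.67%), VWF with 5 counts, and PECAM1, CDH5, KDR and STAB1 had 0. Of 12 lymphocyte markers 1 was detected (8.33%), CD3D with 4 counts, and of 9 erythroid markers none, with 1 count on HBB. These lists summed to 10.5, 7.35 and 1.05 CPM. Defining markers of blood and vessel cells were thus at or near 0, with LYZ as the exception. The globin genes HBA1 and HBA2 are near-identical copies, as are HBG1 and HBG2, so their reads may be among those aligned to several places.

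Stellate cell and fibroblast markers were detected in 7 of 16 cases (43.75%, against 56.1% of all protein-coding genes). Their summed level was 199 CPM, against 169 to 331 CPM elsewhere. TAGLN stood at 48.7 TPM, RELN at 28.96 TPM, COL1A2 at 23.8 TPM and LUM at 6.67 TPM, while ACTA2, LRAT, RGS5 and DCN had 0 counts. Biliary and progenitor markers were detected in 9 of 13 cases (69.2%, against the same 56.1%). KRT19 led at 724 TPM (648 to 805), followed by the factors SOX4 at 262 TPM and SOX9 at 103 TPM and the surface protein EPCAM at 75.7 TPM, whereas AQP1 and MUC1 had 0 counts and CFTR had 2. Keratin 19 was therefore present beside the hepatocyte keratins KRT8 and KRT18.

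Of 12 epithelial markers 11 were detected (91.7%, against 56.1% of all protein-coding genes). KRT18 stood at 4894 TPM, KRT8 at 2604 TPM, the junction protein CTNNB1 at 304 TPM, CLDN1 at 246 TPM and CDH1 (E-cadherin) at 87.7 TPM. Mesenchymal markers were detected in 7 of 11 cases (63.6%, near the 56.1% of all protein-coding genes). They were led by FN1 at 781 TPM, vimentin (VIM) at 461 TPM, CDH2 (N-cadherin) at 84.1 TPM and S100A4 at 39.1 TPM. FN1 and CDH2 are also made by hepatocytes. The factors SNAI2, TWIST1 and TWIST2 had 0 counts and ZEB2 had 2, whereas SNAI1 and ZEB1, named after their values were seen, stood at 26.8 and 12.2 TPM. The intervals of CDH1 (71.9 to 106) and CDH2 (67.0 to 104) overlapped.

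Genes of liver zonation did not follow 1 side of the lobule. Of 16 pericentral and WNT target genes 8 were detected, led by glutamine synthetase (GLUL) at 205 TPM (185 to 227), OAT at 130 TPM, the stem cell receptor LGR5 at 41.1 TPM and TBX3 at 21.1 TPM. NKD1, RHBG and SLC1A2 had 0 counts, and the pericentral P450 gene CYP2E1 stood at 0.521 TPM. Of 11 periportal genes 7 were detected (63.6%, against the same 56.1%). SLC7A2 stood at 90.7 TPM, CDH1 at 87.7 TPM, ASS1 at 75.6 TPM and GLDC at 55.5 TPM, and SDS and PCK1 had 0 counts. The median was 30.2 TPM over the periportal list and 4.16 TPM over the pericentral and WNT list. At 100 TPM or more they had 0 and 2 members.

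Cell cycle genes were all detected, against 56.1% of all protein-coding genes. Of 20 members 17 reached 100 TPM (85.0%, against 8.83%). The median of 209 TPM was the highest of the protein-coding lists described here. MCM7, a subunit of the replicative helicase, stood at 951 TPM (888 to 1018), the replication clamp PCNA at 856 TPM (753 to 968), MCM3 at 594 TPM and the mitotic cyclin CCNB1 at 386 TPM. The lowest were MKI67 at 52.1 TPM, BUB1 at 54.0 TPM and CDK1 at 85.5 TPM. Cancer-testis antigens, germline genes that tumours can transcribe, were detected in 3 of 18 cases (16.7%, against the same 56.1%). These were MAGEB2 at 90.3 TPM (60.5 to 130), PRAME at 30.6 TPM and BRDT at 23.1 TPM. Some of the MAGEA genes are near-identical copies, and the MAGEA genes listed here had 0 or 1 count.

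Of the 277 hepatocyte list members with an identifier, 174 were detected, 49 had 1 or 2 counts and 54 had none. Depth bears on these numbers, because 3 counts correspond to 3.15 CPM in the untreated library and to 0.365 CPM in the deepest one. Of the 103 members under 3 counts, 67 had at least 3 counts and at least 1 CPM in some other library, and 30 of them at least 5 CPM. Another 17 had 3 counts in none of the 9 libraries. The other libraries carry treatments, so these numbers show that the loci can be counted in HuH-7 and say nothing of change. A gene under 3 counts here was not detectable at this depth, which is not the same as absent.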

How the data were processed

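RNA from the mirVana kit, depleted with RiboMinus, went into libraries by Ion Total RNA-Seq Kit v2 for an Ion Torrent Proton, per the labels. The authors deposited 1 table of raw read counts per library, made with TopHat2 2.0.13 on GRCh37 and HTSeq 0.6.1 per the submitters' processing notes. Annotation release and strand setting: not given in the sources used here. Reads of antisense and overlapping genes therefore cannot be told apart. Lines that name no gene held 64.0% of the 2646993 entries of the untreated library and were left out. Of all entries, 46.8% were aligned to several places, 13.8% in no gene and 3.36% ambiguous. A read aligned to several places may be entered once per alignment, so these are not shares of reads.

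GENCODE 29 (GRCh38) gave names, types, exon lengths and overlap for 52526 of 63677 identifiers, and no coordinates were converted. Small RNA sequences are those of GENCODE 29. CPM used the sum over genes. Protein-coding TPM was computed here from these counts. The 27 gene lists (490 of 501 genes matched) and 24 pairs were chosen with earlier results of these data known. Named genes were the 30 highest by count and by TPM, the 5 highest of each RNA class with at least 1% of counts, up to 4 highest and 4 lowest of each list, and all transcription factor, oncofetal, urea cycle, glucose, pair and long noncoding members. Exceptions are marked in the text. Some members of these lists and pairs enter the counts but are not reported by name here. Alternatives changed the count minimum, the length, the total and the denominator of shares. Tools were scipy 1.17.1, numpy 2.4.6, matplotlib 3.10.9 and pandas 2.3.3 under Python 3.11.15, and the intervals were checked on simulated data.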

Additional observations from a re-analysis of the deposited data

Results flagged for a closer look

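Entries outside the named genes were numerous in the untreated library. Reads aligned to several places numbered 1240021, more than the 951816 counts on genes, and reads in no annotated gene numbered 366218. Both kinds exist in the other 8 libraries as well, and their sequences are not in the count tables. The identifier ENSG00000258486 held 25311 counts, more than any other identifier, and 2.66% of the counts on genes, against 0.452 to 4.71% in the other libraries. The tables used here give it no name or type.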

How the results depend on the processing

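As percentages of all entries in the file, class shares were lower, since the denominator grew. They were 27.7% for nuclear protein-coding genes, 1.79% for snoRNAs and scaRNAs, 1.69% for identifiers without a record and 1.49% for long noncoding RNAs. They were 1.31% for snRNAs, 1.00% for miscellaneous small RNAs and 0.551% for mitochondrial rRNAs. Without the 10 genes with most counts the same classes held 86.0, 4.18, 2.35, 3.33, 1.46, 1.35 and 0%, since both mitochondrial rRNAs are among those genes. With the total taken over all genes with a length, list medians were 7.20 TPM for transcription factors, 3.93 TPM for secreted lists and 0.891 TPM for metabolic lists. Over members with 3 counts, the medians were 113 TPM for secreted and 20.8 TPM for metabolic lists. At a minimum of 10 counts 46 metabolic members were detected, and at 5 CPM 30 of the undetected members were counted elsewhere. ALB over AFP was 0.757 with the median transcript length, the opposite order through the length alone, and 1.27 with the longest transcript. FABP1 over FABP5 was 0.679 with the longest transcript and 1.44 without length. At a minimum of 10 counts 8 phase I, 8 phase II, 7 amino acid and 12 bile acid and transporter genes were detected. With the median transcript length the medians were 18.6 TPM for coagulation, 20.1 TPM for the urea cycle and 105 TPM for oncofetal genes. These are among 79 values of single lists that moved by over 1.5 times. For the main results, in 24 further cases the count, median or ratio stayed within 1.5 times of the reported one, or on the same side of 1. Leaving out members with over 50% of exon bases overlapped was an alternative chosen after seeing the data. No paired analysis was possible because each group has 1 library. The floor of 3 counts (3.15 CPM) limits what can be called undetected.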
